A study of Homo sapiens with 58 samples.

Results

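The comparison described here sets HuR binding in nuclear fractions against HuR binding in cytoplasmic fractions of cells stressed with sodium arsenite, and asks which RNAs still differed between the compartments under stress. Its members are 6 of the 58 CLIP-seq libraries of the study, 3 from nuclear and 3 from cytoplasmic fractions, chosen by the fraction and treatment that the labels give. The 6 mock-treated fraction libraries served as the reference for which differences were kept. All 12 libraries came from Huh-7.5, a hepatocellular carcinoma line, of genotype WT and without an APEX labelling reaction. APEX is the peroxidase that other libraries of the study used to tag compartments. The arsenite groups had received 0.5 mM sodium arsenite for 45 min and the mock groups had not. Cells were crosslinked with ultraviolet light at 400 and then 200 mJ/cm2, HuR was precipitated with the antibody 3A2, and its RNA footprints were sequenced. The labels do not say whether the 3 libraries of a group came from separate cultures, so p-values measure the spread between these libraries, which may be technical.

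HuR, encoded by ELAVL1, is an RNA-binding protein of the ELAV family that binds U-rich and AU-rich stretches in introns and in 3'UTRs, the untranslated ends of mRNAs. It is mostly nuclear and shuttles to the cytoplasm, where it is known to stabilise bound mRNAs and to affect their translation. Arsenite causes oxidative stress, stops most translation initiation and drives mRNAs and their binding proteins, HuR among them, into stress granules in the cytoplasm.

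Values are tags (sequenced CLIP fragments) in 20-nt peaks, divided by the library's total and multiplied by 1000000 (CPM). After 8257 repeated lines were dropped, 387214 peaks remained, and the peaks with a gene name were summed for each gene and each of 10 annotation classes, which gave 30217 sums for 13836 genes. Each sum is called a unit below. Of these, 8424 units of 5594 genes averaged at least 5 CPM over the 12 libraries and were tested (27.9% of the units). Differences are nuclear minus cytoplasmic on the log2(CPM + 0.888) scale, which understates the change of low units, and a unit was called where limma's test, adjusted by Benjamini-Hochberg over all 8424 units, gave a p under 0.05. A difference is called kept where it was called in mock and in arsenite with the same sign.

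The 12 libraries held 686263 to 1759090 tags, of which 34.1 to 38.7% lay in peaks, and the 6 arsenite libraries held 408733 to 673322 tags in peaks. Of 8 hepatocyte markers 6 had tags, with a summed 654 to 707 CPM in the nuclear and 945 to 1062 CPM in the cytoplasmic arsenite libraries, while APOA1 and TTR were at 0. Markers of immune, fibroblast and endothelial cells summed to at most 3.20 CPM. MALAT1, a lncRNA known to be retained in the nucleus, showed no called difference between the fractions. It had 2592, 2865 and 3253 CPM in the nuclear and 2403, 2807 and 3304 CPM in the cytoplasmic arsenite libraries, a log2 difference of 0.04 (adjusted p = 0.87). The mock difference was 0.10. NEAT1, the lncRNA that builds nuclear paraspeckles, did differ, with 436, 554 and 626 CPM in the nuclear and 201, 216 and 280.3 CPM in the cytoplasmic arsenite libraries. Cytoplasmic mock library 1 stood apart from the other two of its group, with 37.1% of its tags in 3'UTR peaks against 45.3 and 44.6%. Without it 5746 units were called in mock and 839 were kept. Every value is a share of a library, so the amount of an RNA in a fraction and its occupancy by HuR cannot be told apart.

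Reference sequence was at hand for 353 peaks, those inside the RefSeq windows around gene starts (GRCh38.p14).
Among them were 2 peaks in snoRNA genes with at least 20 tags. SnoRNAs are small nucleolar RNAs that guide the chemical modification of other RNAs and are mostly cut out of introns. The table puts the SNORD58B peak in its 5'UTR class and the SNORD121B peak in its snoRNA class.
They are shown beside 4 peaks of the 5'UTR class outside small RNA genes, in order of their tags, as examples of both kinds.
Each line gives 30 bases from 5' to 3' on the peak's strand, with the 20-nt peak in capitals.

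SNORD58B in RPL17-C18orf32 (chr18:49491680-49491700, minus strand): cacctTTGGATTAATAATGAAAACAactac
SNORD121B in UBAP2 (chr9:33934319-33934339, minus strand): acataTCTGAGTTGTATGTGTGGACagcac
C6orf62 5'UTR (chr6:24719141-24719161, minus strand): tttttTTTTTTGGAAAGCAAGGATCacact
CLASP1 5'UTR (chr2:121649450-121649470, minus strand): tttttTTTTTTTAATCCCCGCACCAagcgc
MAP4K4 5'UTR (chr2:101698058-101698078, plus strand): tttgtTTTTTGGTGGCAAAAAGGGAaaatg
PSMB4 5'UTR (chr1:151399570-151399590, plus strand): tttttCTGCTACCGTGACTAAGATGgaagc

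The SNORD58B peak had 12, 9.6 and 18.2 CPM in the nuclear and 1.44, 0.568 and 0 CPM in the cytoplasmic arsenite libraries. The SNORD121B peak had 4, 8.8 and 6.06 CPM in the nuclear and 0, 0.568 and 1.39 CPM in the cytoplasmic arsenite libraries. In both, every nuclear library lay above every cytoplasmic one, on 48 against 3 and 23 against 3 tags. The C6orf62 peak had 125, 80.8 and 79.7 CPM in the nuclear and 110.5, 121 and 126 CPM in the cytoplasmic arsenite libraries, so its cytoplasmic libraries had the higher mean (119 against 95.1 CPM). The CLASP1 peak averaged 40.1 against 22.0 CPM, the MAP4K4 peak 25.8 against 24.8 CPM and the PSMB4 peak 6.07 against 7.23 CPM. These 4 peaks thus had no common direction. The run TTTTT, searched in the same 30 bases, is in each of these 4 sequences and in neither of the sequences in snoRNA genes. Over all 353 such windows, TTTTT was found in 34.0% on the strand of the peak and in 8.50% on the other strand. The AU-rich core ATTTA was found in 7.65% and 6.23%, and the snoRNA box motif CTGA, present in the SNORD121B sequence, in 11.6% and 12.2%. The longer snoRNA box motif TGATGA was in 0.283% of windows on either strand and in none of the 6 sequences shown. A match says only that these letters are in the window.

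Under arsenite 932 of 8424 units were called different between the fractions (11.1%). Of these, 262 were higher in the nuclear (3.11%) and 670 higher in the cytoplasmic fraction (7.95%), and in 922 of the 932 the 3 nuclear and 3 cytoplasmic libraries did not overlap, as in 2685 (31.9%) of all tested units. In mock-treated cells 5669 units were called (67.3%), 2990 nuclear (35.5%) and 2679 cytoplasmic (31.8%). The change of the difference with arsenite was itself called in 3463 units (41.1%): 1936 became more nuclear (23%) and 1527 less nuclear (18.1%). With TMM scaling in edgeR that split was 2106 (25%) to 933 (11.1%), and with DESeq2 it was 1795 (21.3%) to 305 (3.62%). DESeq2's mock split was 1321 nuclear (15.7%) to 2602 cytoplasmic (30.9%). In arsenite edgeR called 1336 units (15.9%) and DESeq2 661 (7.85%). With TMM the arsenite split was 484 nuclear (5.75%) to 808 cytoplasmic (9.59%), with 304 kept nuclear units. Of the 5669 mock differences 804 were kept (14.2%; 9.54% of all tested units), 193 nuclear and 611 cytoplasmic. A further 2830 were not kept and had a called change, 1983 were not kept without a called change, and 52 were called with the opposite sign. In addition 76 units were called in arsenite and not in mock. The kept cytoplasmic differences had a median of -1.14 in arsenite and -2.51 in mock, and the kept nuclear ones 1.39 and 1.48. Kept units had passed the threshold in both treatments, so these sizes depend on the choice. Over all 2990 mock-nuclear units the median was 0.94 in mock and 0.13 in arsenite, and 6.45% were kept. For the 2679 mock-cytoplasmic units it was -1.97 and -0.44, and 22.8% were kept. The change was called in 417 of the 611 kept cytoplasmic and in 31 of the 193 kept nuclear units. The counts leaned on single libraries. Without cytoplasmic arsenite library 2, 609 units were called, 405 of them cytoplasmic, and 527 were kept, 381 of them cytoplasmic. Without nuclear library 2 or cytoplasmic library 1 of arsenite the nuclear calls were 163 or 166 and the kept nuclear ones 122 or 125.

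The classes differed in what they kept. Units of 3'UTRs, where HuR binds mature mRNA, were lower in the nuclear fraction in mock with a median log2 difference of -1.84 and in arsenite with -0.35. Units of introns, which lie in unspliced RNA or are retained in spliced RNA, had medians of 0.71 and 0.05. Units of the snoRNA class had 3.25 and 3.27. The medians over all tested units were 0.37 in mock and -0.04 in arsenite. In arsenite 574 of 2850 3'UTR units were cytoplasmic (20.1%) and 55 nuclear (1.93%), against 90 nuclear (2.2%) and 45 cytoplasmic (1.1%) of 4092 intron units. The intron split moved with the scaling, to 116 nuclear and 31 cytoplasmic with centred libraries, 114 and 32 per tag in peaks, 216 and 58 by edgeR with TMM and 67 and 23 by DESeq2. For 3'UTR units it was 63 nuclear and 500 cytoplasmic with centred libraries, 98 and 676 by edgeR with TMM and 41 and 396 by DESeq2. All 34 tested snoRNA units were nuclear (100%). In the smaller classes, 39 of 507 ncRNA units were nuclear (7.69%) and 12 cytoplasmic (2.37%). Of 112 5'UTR units 13 were nuclear (11.6%) and 6 cytoplasmic (5.36%), and of 64 CDS units 11 lay on each side (17.2%). The class the table calls Other had 17 nuclear and 8 cytoplasmic of 394, the class it calls TE 2 and 9 of 342, and the unannotated class 0 and 5 of 25. Of the 4 units in the class downstream 10K, 1 was nuclear. Without cytoplasmic arsenite library 1, 2 or 3 the cytoplasmic ncRNA units were 6, 6 or 5, and without cytoplasmic library 1 the nuclear 5'UTR units were 8. The 6 cytoplasmic 5'UTR units were 2 without cytoplasmic library 1 or 3 and 3 without nuclear library 3. Without the peaks in small RNA genes, 20 ncRNA and 8 5'UTR units were nuclear. By edgeR with library totals 21 ncRNA and 11 5'UTR units were cytoplasmic, and by DESeq2 6 and 3.

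**Figure D1:**
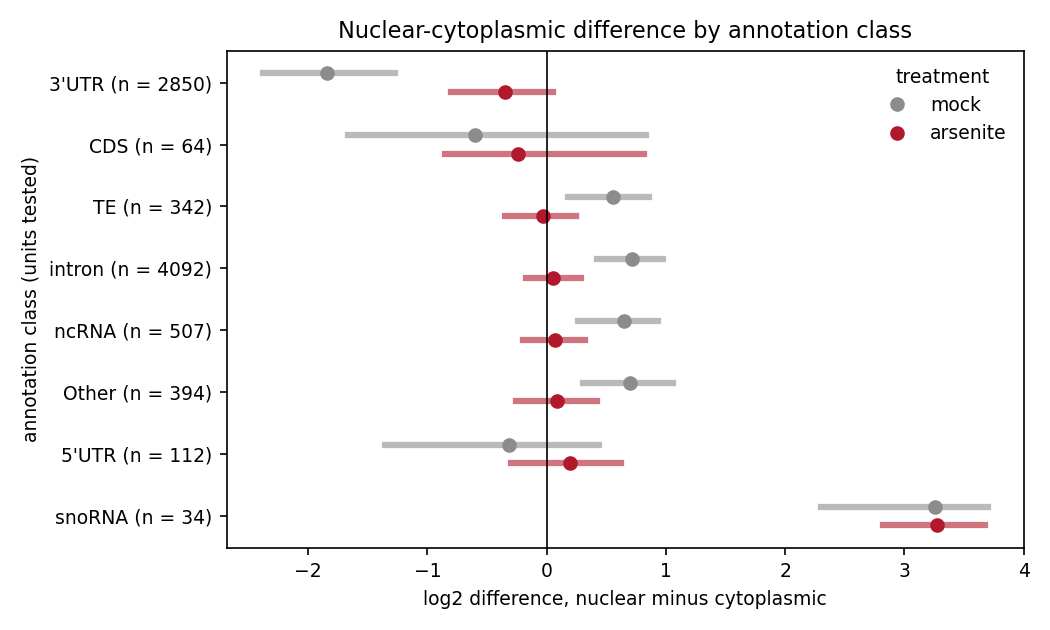
Nuclear minus cytoplasmic difference on the log2(CPM + 0.888) scale for the tested units of 8 annotation classes, in mock and in arsenite; points are class medians and bars run from the lower to the upper quartile. The 3'UTR median moved from -1.84 to -0.35 and the intron median from 0.71 to 0.05, while the snoRNA class had 3.25 and 3.27 on this scale. The summed tags of its 34 units were 7.76-fold higher in the nuclear fraction in mock and 13.9-fold in arsenite.

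As shares of all tags in peaks, 3'UTR peaks held 19.2 ± 1.33% of the nuclear and 24.5 ± 0.943% of the cytoplasmic arsenite tags (SD, n = 3 libraries each), a difference of -5.28 percentage points that was -30.6 in mock. Intron peaks held 47.3 ± 1.38% and 43.7 ± 0.760%, a difference of 3.59 points that was 23.4 in mock. The snoRNA class held 0.251 ± 0.0445% and 0.0191 ± 0.00327%, and 0.571 against 0.0655% in mock, so its share was lower after arsenite in both fractions and higher in the nuclear one in both treatments. The shares of 7 classes did not overlap between the 3 nuclear and 3 cytoplasmic arsenite libraries, each with an exact permutation p of 0.1, the smallest that 3 against 3 can give, and 0.143 after adjustment over the 10 classes. Those of CDS, TE and downstream 10K peaks overlapped (exact p = 0.2, 0.5 and 1). As a share of the library total the intron difference was 0.590 points, with overlap (exact permutation p = 0.4), and class Other overlapped too (exact permutation p = 0.3). The intron share of peaks with a tag also overlapped (exact permutation p = 0.3).

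Among 3'UTR units, 2467 were cytoplasmic in mock (86.6%), and 568 of these were kept in arsenite (23.0%). A further 1354 were not kept with a called change, 507 were not kept without one, and 38 turned nuclear. The 568 kept units together had 16660 ± 1282 CPM in the nuclear and 35129 ± 2649.6 CPM in the cytoplasmic arsenite libraries, and 11156 ± 639 against 66092 ± 9517 CPM in mock (SD, n = 3). The 1354 units with a called change that were not kept had 33148 ± 1779 and 36010 ± 1867 CPM in arsenite, where they overlapped, and 15905 ± 956 and 65115 ± 8518 CPM in mock, where they did not. In both sets the cytoplasmic level was lower and the nuclear level higher in arsenite than in mock. Both sets were picked by their calls on these same libraries, so their overlap or separation in each treatment largely followed from the choice. For the 1354 units the direction of the change was also a condition of the choice. Without cytoplasmic arsenite library 2, 349 3'UTR units were cytoplasmic and 347 kept, and without nuclear library 2 or cytoplasmic library 3, 36 or 34 were nuclear instead of 55.

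The larger the mock difference of a 3'UTR, the more often it was kept. Of 118 3'UTR units with a called mock difference of less than 1 on the log2 scale 3 were kept (2.54%), of 1138 between 1 and 2 there were 123 (10.8%), of 1027 between 2 and 3 there were 333 (32.4%), and of 184 above 3 there were 109 (59.2%). The median arsenite difference in the same steps was -0.03, -0.22, -0.62 and -1.08. Across the 2850 3'UTR units, which are not independent replicates, the mock and arsenite differences had a Pearson r of 0.533 and a Spearman rho of 0.510. Across 4092 intron units they were 0.404 and 0.362. The mock and arsenite contrasts share no library.

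**Figure D2:**
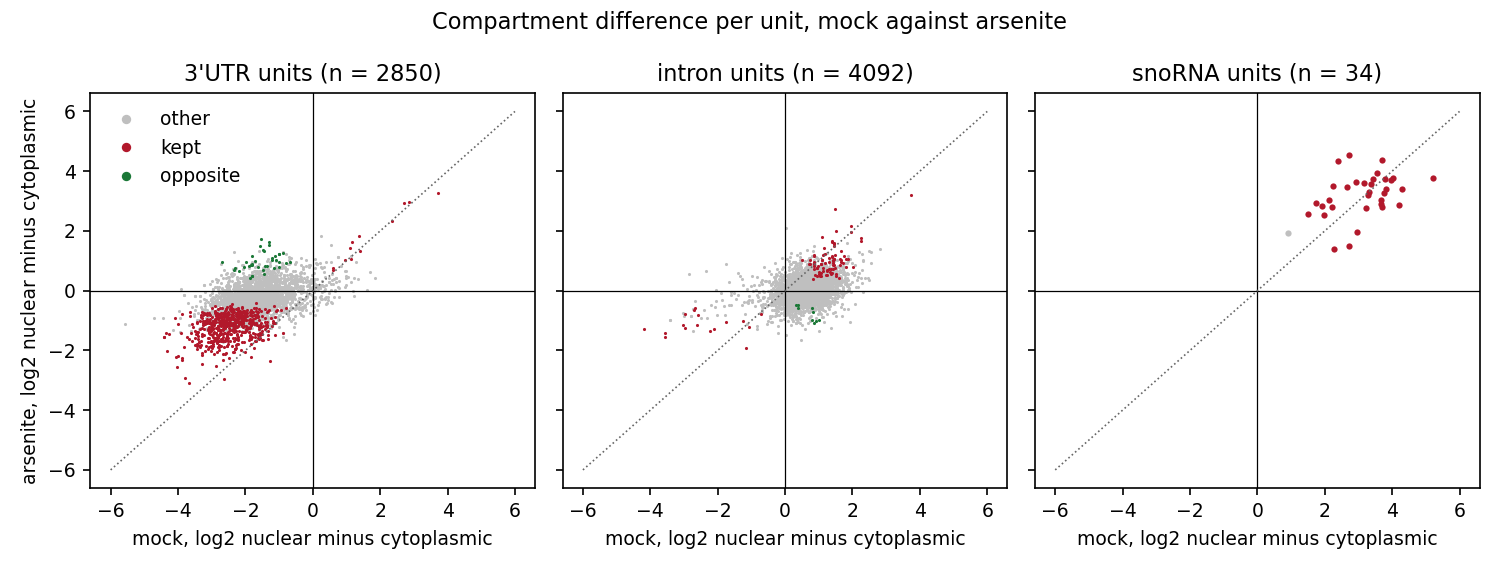
Nuclear minus cytoplasmic log2 difference in mock (x axis) against that in arsenite (y axis) for each tested unit of the 3'UTR, intron and snoRNA classes; red units were kept, green ones were called with opposite signs, grey ones neither, and the dotted line marks equal differences. The 3'UTR cloud, with a median of -1.84 in mock and -0.35 in arsenite, and the intron cloud, with 0.71 and 0.05, lie off the line, while the snoRNA units, with 3.25 and 3.27, lie around it.

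The 10 largest cytoplasmic differences were in YBX1, PLEKHA2, KLHDC7A, ARIH1, SNRPF, UFM1, ACTR2, RPL23P4, RPL23 and ANLN, and each was called with every library left out in turn and by edgeR and DESeq2. YBX1, a cold-shock protein that binds mRNA and enters stress granules, had 9.61, 0 and 3.47 CPM in the nuclear and 33.2, 32.4 and 20.9 CPM in the cytoplasmic arsenite libraries over its 3'UTR peaks, of which the largest lies at chr1:42702128-42702148. The groups did not overlap, and nuclear library 2 had no tag. The log2 difference was -3.08 ± 0.49 (SE, adjusted p = 1.3e-05) and the mock difference -3.68. KLHDC7A had 2.4, 1.6 and 1.73 CPM against 18.8, 21.6 and 20.2 CPM in its 3'UTR (chr1:18485895-18485915 holds its largest peak), a difference of -2.92 ± 0.45 (SE, adjusted p = 7.7e-06). PLEKHA2, a protein with a pleckstrin homology domain, had 4, 0 and 0.866 CPM against 15.9, 13.1 and 13.9 CPM in its 3'UTR. Neither gene's nuclear libraries reached the lowest cytoplasmic one.

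UFM1, a ubiquitin-like modifier, had 8.81, 12 and 3.47 CPM against 41.9, 51.2 and 45.2 CPM in its 3'UTR (largest peak at chr13:38361090-38361110), a difference of -2.52 ± 0.34 (SE, adjusted p = 5.1e-07). ACTR2, a subunit of the Arp2/3 complex that nucleates branched actin, had 35.2, 35.2 and 32.9 CPM against 196, 198 and 182 CPM (chr2:65269850-65269870), -2.45 ± 0.16 (SE, adjusted p = 8.3e-15). Both were kept. The mock differences were -2.86 and -3.30, and only that of ACTR2 changed by a called amount, 0.85 ± 0.23 (SE, adjusted p = 0.0031). SNRPF, a protein of the Sm ring of spliceosomal RNPs, had 0, 1.6 and 0 CPM against 5.05, 8.53 and 6.26 CPM. Its 2 nuclear tags give a ratio of 12.4 with a counting interval of 3.14 to 107. ANLN, an actin-binding protein of the cleavage furrow, had 1.6, 0.8 and 1.73 CPM against 12.3, 11.4 and 8.35 CPM, a difference of -2.36. The ribosomal protein gene RPL23 was cytoplasmic in its CDS (15.2, 11.2 and 15.6 CPM against 59.2, 90.4 and 88.3 CPM). So was its pseudogene RPL23P4 (2.4, 1.6 and 2.6 CPM against 13.7, 19.3 and 14.6 CPM). As near-copies they may share tags, so the split between them is uncertain. ARIH1, a ubiquitin ligase, was the only one of the 10 not called in mock. Its TE unit had 3.2, 0.8 and 2.6 CPM against 21.7, 19.3 and 18.1 CPM in arsenite and a mock difference of -0.65, and the change of -2.18 ± 0.52 (SE, adjusted p = 0.0012) was called.

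**Figure D3:**
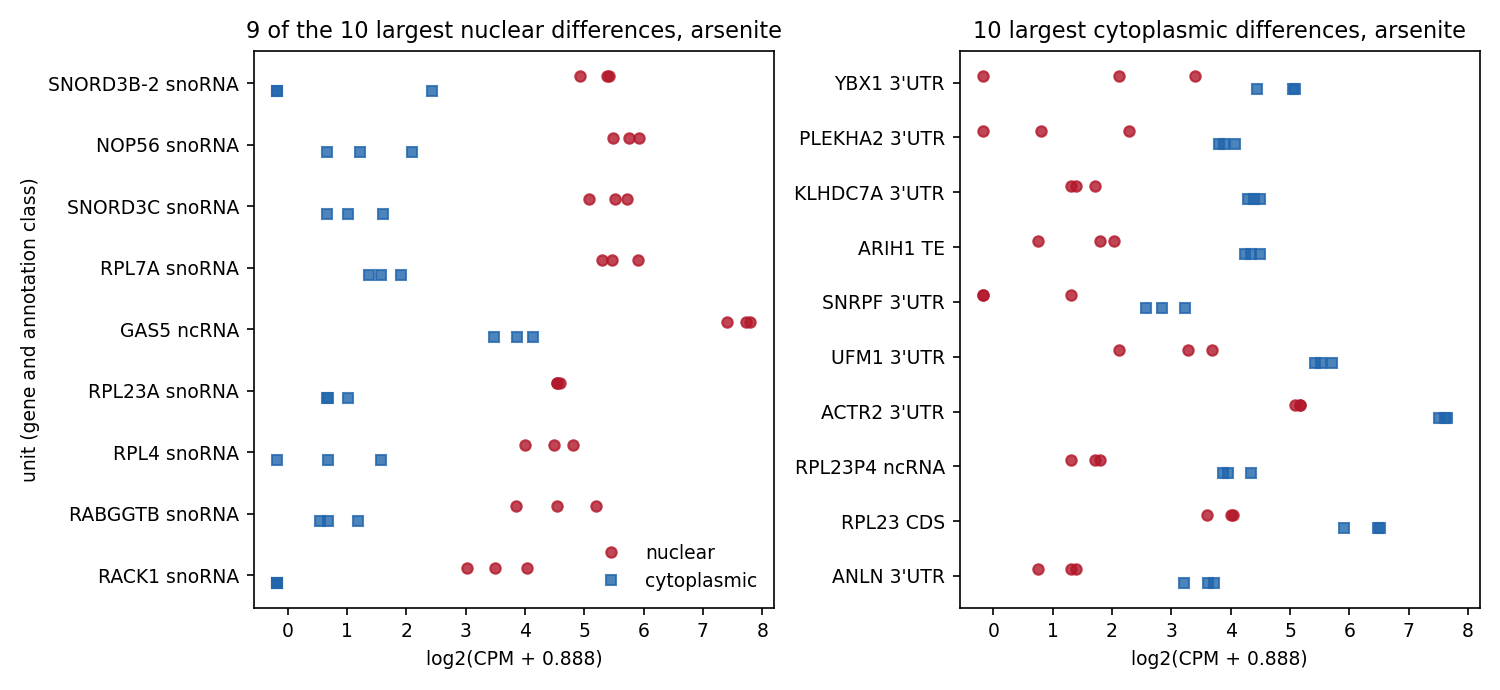
Level of 9 of the 10 units with the largest nuclear and the 10 with the largest cytoplasmic difference in arsenite, on the log2(CPM + 0.888) scale (x axis), with 1 point for each of the 3 nuclear (red circles) and 3 cytoplasmic (blue squares) arsenite libraries. The nuclear and cytoplasmic points of a unit do not overlap, which was a condition of the choice; the largest differences are 4.54 for SNORD3B-2 and -3.08 for YBX1.

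Gene families were read from lists of known members, and the counts below are of 3'UTR units unless another class is named. Over all 2850 3'UTR units 86.6% were cytoplasmic in mock and 20.1% in arsenite, with medians of -1.84 and -0.35. Of 24 3'UTRs of stress granule proteins, 20 were cytoplasmic in mock and 11 in arsenite, all 11 kept (median -0.61, mock -2.07). The count was 7 without cytoplasmic library 2, and 1 was higher in the nuclear fraction at an unadjusted p under 0.05 but by no adjusted test of limma, edgeR or DESeq2. G3BP1, the nucleator of stress granules, had 126, 154 and 102 CPM in the nuclear and 197, 202 and 163 CPM in the cytoplasmic arsenite libraries. The groups did not overlap, and the difference of -0.57 ± 0.15 (SE, adjusted p = 0.0096) was kept from -2.69 in mock. Its adjusted p rose above 0.05 without nuclear arsenite library 3 (0.141), cytoplasmic arsenite library 1 (0.0579) or cytoplasmic arsenite library 2 (0.0715). Its intron unit differed by 0.28 (adjusted p = 0.59) and was called in neither treatment. Among the 25 hnRNP 3'UTRs, whose products package and splice nuclear RNA, 20 were cytoplasmic in mock and 9 in arsenite, all kept (median -0.58, mock -2.34). Leaving out a library gave 6 to 10, with 6 without cytoplasmic library 2. One of the 9, HNRNPU, had most of its tags in a snoRNA gene. PCBP2, a poly(C)-binding protein, had 175, 198 and 185 CPM against 426, 534 and 428 CPM, -1.31 ± 0.13 (SE, adjusted p = 8.1e-10). PTBP3, a polypyrimidine tract-binding protein, had 80.9, 70.4 and 44.2 CPM against 206, 216 and 196 CPM, -1.69 ± 0.16 (SE, adjusted p = 3.1e-10). Both were called in every leave-one-out fit.

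Of 23 3'UTRs of translation initiation and elongation factors, 21 were cytoplasmic in mock and 10 in arsenite, all kept, with 1 nuclear (median -0.73, mock -2.38). Without cytoplasmic library 2 there were 5, and the nuclear one was not called without nuclear library 1 or 3 or cytoplasmic library 1 or 2. EIF2S1, the subunit whose phosphorylation stops initiation under stress, had 7.21, 7.2 and 2.6 CPM against 17.3, 19.9 and 18.8 CPM and a difference of -1.68 (adjusted p = 0.0009). It was the only one of 5 tested 3'UTRs of the integrated stress response list that was called. The proteasome had 5 of 9 3'UTRs cytoplasmic, all kept, against 8 in mock (median -1.21, mock -2.49). Only 3 were called without nuclear library 3, cytoplasmic library 2 or cytoplasmic library 3. PSMB3, a core subunit, had 11.2, 16 and 6.93 CPM against 57.8, 57.4 and 48.7 CPM. PSMD11, a subunit of the regulatory cap, had 45.6, 43.2 and 43.3 CPM against 93.9, 125 and 111 CPM. Neither overlapped, and the differences were -2.24 (adjusted p = 4.6e-08) and -1.29 (adjusted p = 1.3e-06). Of 19 3'UTRs of RAB GTPases, which direct vesicle traffic, all were cytoplasmic in mock and 4 in arsenite (1 without cytoplasmic library 3). The shares over all 3'UTR units were 86.6% and 20.1%. RAB5A of early endosomes kept a difference of -1.46 (adjusted p = 8.8e-07).

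Secreted liver proteins were among the cytoplasmic units. Of 9 tested 3'UTRs of hepatocyte plasma proteins all were cytoplasmic in mock and 4 in arsenite (median -1.30, mock -2.15; 4 to 6 when a library was left out). ALB, albumin, had 32.8, 24 and 21.7 CPM in the nuclear and 74.4, 105 and 83.5 CPM in the cytoplasmic arsenite libraries (chr4:73421157-73421177 holds its largest peak), a difference of -1.72 ± 0.17 (SE, adjusted p = 5.5e-10) that was -2.11 in mock. FGB, the fibrinogen beta chain, had 8.81, 12.8 and 11.3 CPM against 28.2, 26.1 and 29.9 CPM, -1.30 (adjusted p = 2.4e-05). TFPI, an inhibitor of coagulation, had 20.02, 14.4 and 13 CPM against 53.4, 51.2 and 45.9 CPM, -1.63 (adjusted p = 4.6e-08). In coding sequence, TF (transferrin, the iron carrier of plasma) had 11.2, 9.6 and 6.93 CPM against 23.1, 30.1 and 22.3 CPM. APOB (the core apolipoprotein of low-density lipoprotein) had 67.3, 56 and 50.2 CPM against 142, 116 and 120.3 CPM. These 5 units did not overlap between the fractions and were called with every library left out. Of 17 3'UTRs of cholesterol and lipid synthesis 16 were cytoplasmic in mock and 4 in arsenite (median -0.47), against 86.6% and 20.1% of all 3'UTR units. SCD, the stearoyl-CoA desaturase, differed by -0.76 (adjusted p = 2.4e-05), ELOVL5, a fatty acid elongase, by -2.01 (adjusted p = 2e-11), and CYP51A1, a sterol demethylase, by -1.87 (adjusted p = 2e-06).

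Of 9 3'UTRs of the NRF2 response to oxidative stress, 8 were cytoplasmic in mock and 3 in arsenite, all kept (median -0.77). PRDX1, a peroxiredoxin that reduces peroxides, had 10.4, 8.8 and 14.7 CPM against 39.7, 61.4 and 29.9 CPM, a difference of -1.84 ± 0.24 (SE, adjusted p = 2.2e-07). PRDX6 differed by -1.54 (adjusted p = 0.0029) and GCLM, a subunit of the enzyme that starts glutathione synthesis, by -0.98 (adjusted p = 0.0021). PGD, an enzyme of the pentose phosphate pathway, was nuclear in its introns, with 38.4, 40.8 and 39 CPM against 12.3, 14.8 and 11.8 CPM. Of 10 3'UTRs of heat shock proteins and chaperones all were cytoplasmic in mock and 2 in arsenite, DNAJC3 at -0.96 (adjusted p = 0.0273) and HSPA9 at -0.77 (adjusted p = 0.00509), both named after their values were seen. This count fell to 1 without nuclear library 2, nuclear library 3 or cytoplasmic library 1 and to 0 without cytoplasmic library 2. Of 17 3'UTRs of cell cycle and related targets of HuR 3 were called, and 0 to 1 without any 1 of the arsenite libraries. CCNA2, cyclin A2, differed by -1.85 (adjusted p = 0.0098). That p rose above 0.05 without nuclear arsenite library 3 (0.0816), cytoplasmic arsenite library 1 (0.0567) or cytoplasmic arsenite library 2 (0.0518). Among 21 3'UTRs of nuclear transport factors 18 were cytoplasmic in mock and 4 in arsenite (median -0.38), against 86.6% and 20.1% of all 3'UTR units. RAN, the GTPase that drives transport, differed by -1.16 (adjusted p = 0.00017) and the importin KPNA4 by -1.01 (adjusted p = 0.0025). Of 9 hypoxia 3'UTRs 2 were called cytoplasmic, against 20.1% of all 3'UTR units, and EGLN1, the prolyl hydroxylase that senses oxygen, differed by -1.53 (adjusted p = 0.00021). Only 1 was called without nuclear library 3, cytoplasmic library 1 or cytoplasmic library 3.

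Actin 3'UTRs had a median mock difference of -4.10 over 9 units, the lowest among the lists named here, and -0.93 in arsenite, where 5 were called. Only 3 were called without nuclear library 3 or cytoplasmic library 1 and 2 without cytoplasmic library 2. ACTB, beta-actin, had 516, 495 and 457 CPM in the nuclear and 925, 1164 and 1007 CPM in the cytoplasmic arsenite libraries (chr7:5527610-5527630 holds its largest peak). The groups did not overlap, and the difference of -1.07 ± 0.11 (SE, adjusted p = 1.1e-09) was kept from -3.24 in mock, where the means were 249 and 2385 CPM. Its change of 2.17 ± 0.15 (SE, adjusted p = 2.3e-13) was called. The actin-like POTE genes are near-copies of ACTB and ACTG1, so tags may be split among them. Of 14 3'UTRs of SR splicing factors 4 were cytoplasmic and 2 nuclear in arsenite, against 11 and 2 in mock. SRSF5 was nuclear, with 81.7, 70.4 and 56.3 CPM against 23.8, 28.4 and 22.3 CPM. SRSF9 was cytoplasmic, with 96.1, 78.4 and 84 CPM against 220.2, 238 and 242 CPM. The differences were 1.44 ± 0.18 (SE, adjusted p = 9.4e-08) and -1.43 ± 0.16 (SE, adjusted p = 5e-09). Of 53 3'UTRs of zinc finger (ZNF) genes, 37 were cytoplasmic in mock and 4 in arsenite (median -0.18), against 86.6% and 20.1% of all 3'UTR units. The only nuclear one, ZNF12, at 1.35 (adjusted p = 0.028), was not called without nuclear arsenite library 1 (0.102), nuclear arsenite library 2 (0.134), cytoplasmic arsenite library 1 (0.0585) or cytoplasmic arsenite library 3 (0.14). ZNF652 and ZNF770 kept differences of -1.36 (adjusted p = 2.3e-06) and -1.11 (adjusted p = 0.0014).

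Smaller families gave few calls. Of 6 histone 3'UTRs 3 were cytoplasmic, among them H3-3A of the replication-independent histone H3.3 at -1.60 (adjusted p = 0.0049). Only 2 were called without nuclear library 2, nuclear library 3 or any cytoplasmic arsenite library. Of 6 3'UTRs of oxidative phosphorylation genes COX7A2L, a factor of respiratory supercomplexes, was called at -1.38 (adjusted p = 0.0002). Of 8 amino acid transporters 3 were called and 1 without any of nuclear libraries 2 and 3 and cytoplasmic libraries 1, 2 and 3. SLC38A2, a glutamine transporter, was called throughout at -0.45 (adjusted p = 0.0056). TFRC, the transferrin receptor, was the only one of 4 iron-handling 3'UTRs called, at -0.68 (adjusted p = 0.017). Its p rose above 0.05 without nuclear arsenite library 2 (0.1), nuclear arsenite library 3 (0.0701), cytoplasmic arsenite library 1 (0.0566) or cytoplasmic arsenite library 3 (0.0951). Of 12 units of mitochondrially encoded genes, which do not pass through the nucleus, 9 were cytoplasmic in mock and 1 in arsenite, against 31.8% and 7.95% of all tested units. That one was MT-RNR2, the large mitochondrial rRNA, at -0.45 (adjusted p = 0.023). Its largest peak, with 44.2% of its tags, lay on the other side, at 108 CPM in the nuclear and 46.2 CPM in the cytoplasmic libraries. Its libraries overlapped, and it was not called without nuclear arsenite library 2 (0.187), nuclear arsenite library 3 (0.175), cytoplasmic arsenite library 1 (0.265) or cytoplasmic arsenite library 3 (0.0513). The 12 ribosomal protein 3'UTRs split, with 5 cytoplasmic (3 without cytoplasmic library 1 or 3 and 2 without cytoplasmic library 2) and 2 nuclear, whose tags lay mostly in small RNA genes.

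Other 3'UTRs had a mock difference and none that was called in arsenite. Of 11 3'UTRs of immediate early genes, short-lived transcripts that HuR is known to bind, 9 were cytoplasmic in mock and none was called in either direction in arsenite, also not by edgeR or DESeq2 or at an unadjusted p under 0.05. The median was 0.14, and -1.30 in mock. Over all 3'UTR units 86.6% were cytoplasmic in mock and 20.1% in arsenite. For 6 of the 11 the change was called, all toward the nuclear side, against 63.3% of all 3'UTR units, and the genes given here were chosen after their values were seen. JUND, an AP-1 factor, differed by -1.68 in mock and 0.03 (adjusted p = 0.936) in arsenite with a change of 1.71 (adjusted p = 1.16e-08). KLF6, a zinc finger factor, went from -1.68 to 0.02 (adjusted p = 0.976) with a change of 1.69 (adjusted p = 0.000161). BTG2, an antiproliferative factor, went from -2.41 to -0.17 (adjusted p = 0.889) with a change of 2.24 (adjusted p = 0.00777). For JUN the mock difference was -0.92 and the arsenite one -0.05 (adjusted p = 0.942), and the change missed the threshold at 0.86 (adjusted p = 0.0673). Of 17 3'UTRs of AU-rich element binding and decay factors 16 were cytoplasmic in mock and 1 in arsenite, and 15 had a called change, all toward the nuclear side, against 63.3% of all 3'UTR units (median -0.27, mock -1.65). The one kept was CNOT7, a deadenylase, at -1.79 (adjusted p = 6.6e-06).

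HuR's own transcript was in this group. The ELAVL1 3'UTR had 40.8, 39.2 and 34.7 CPM in the nuclear and 44, 40.4 and 35.5 CPM in the cytoplasmic arsenite libraries, which overlapped, in contrast to 17.5, 10.9 and 13.5 CPM against 47.9, 45.8 and 70.6 CPM in mock, which did not. Its arsenite difference was -0.06 (adjusted p = 0.92), with a sign that turned under other scalings, its mock difference -1.90, and the change of 1.84 ± 0.31 (SE, adjusted p = 1e-05) was called. The cytoplasmic lncRNA NORAD, which binds Pumilio proteins, had 129.7, 137 and 108 CPM against 116, 108 and 109.9 CPM. Its difference was 0.16 (adjusted p = 0.63) in arsenite and -2.28 in mock, with a change of 2.44 ± 0.22 (SE, adjusted p = 6.4e-11). OIP5-AS1, a lncRNA known to bind HuR, differed by -0.54 (adjusted p = 0.13) in arsenite and -0.96 in mock, and neither the arsenite difference nor the change, 0.42 (adjusted p = 0.28), was called.

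The largest changes toward the nuclear side were in the 3'UTRs of POTEF (4.44), POGLUT1 (3.97), POTEI (3.79), COX10 (3.68) and SH2D4A (3.68). POGLUT1, an enzyme that adds glucose to Notch, had 0, 0 and 0.966 CPM in nuclear and 9.57, 22.4 and 20.03 CPM in cytoplasmic mock libraries, and 7.21, 3.2 and 3.47 CPM against 5.05, 5.12 and 2.78 CPM in arsenite. COX10, an enzyme of heme A synthesis, had 0, 0.909 and 0 CPM against 13.8, 16.3 and 14.8 CPM in mock and 3.2, 3.2 and 2.6 CPM against 0.722, 7.39 and 4.87 CPM in arsenite. In both, the cytoplasmic level was lower after arsenite and the arsenite difference was not called. The largest changes the other way were in PPIG (class Other, -3.93), ASCC1 (intron, -2.99), R3HDM1 (TE, -2.71), ST8SIA6-AS1 (ncRNA, -2.70) and TGS1 (intron, -2.63). PPIG, a nuclear cyclophilin, had 14.6, 11.8 and 15.4 CPM against 0, 0 and 4.22 CPM in mock and 5.6, 3.2 and 0 CPM against 5.78, 3.41 and 2.78 CPM in arsenite.

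Few intron units were kept. Of 4092 tested intron units 2382 were nuclear in mock (58.2%), and 81 of these were kept (3.40%), 1185 were not kept with a called change, 1107 were not kept without one and 9 turned cytoplasmic. Together the 2382 units had 132606 ± 7458 CPM in the nuclear and 125595 ± 4872 CPM in the cytoplasmic arsenite libraries (SD, n = 3), which overlapped, and 146562 ± 1595 against 82016 ± 9441 CPM in mock. The 81 kept units had 4568 ± 296 and 2721 ± 256 CPM in arsenite and 4506 ± 72.1 and 1873 ± 114 CPM in mock. The 2382 units were picked by their mock call and the 81 by both calls. Their separation in the treatments used for the choice thus tests nothing. The count of 90 nuclear intron units fell to 39 without nuclear library 2, 46 without nuclear library 3 and 36 without cytoplasmic library 1, and the kept ones to 37, 42 and 33. The 45 cytoplasmic ones fell to between 20 and 29 without nuclear library 1 or 2 or any cytoplasmic arsenite library. HSP90AA1, the inducible cytosolic HSP90, was the largest nuclear intron unit outside small RNA genes, with 13.6, 14.4 and 18.2 CPM against 0.722, 1.14 and 3.48 CPM, a difference of 2.74 ± 0.56 (SE, adjusted p = 0.00053). ATF3, a stress-induced transcription factor, was cytoplasmic in its introns, with 102, 110.4 and 106 CPM against 172, 182 and 153 CPM, -0.66 ± 0.14 (SE, adjusted p = 0.00096), kept from -2.70 in mock. Leaving out units with a tag in a small RNA gene, most tags carried the table's label for a retained intron in 31 of 87 nuclear (35.6%), 9 of 45 cytoplasmic (20%) and 1202 of 3934 uncalled intron units (30.6%).

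In 1853 genes both an intron and a 3'UTR unit were tested, so the same gene could be read in both. Whether the tags came from unspliced or mature RNA was not tested. The intron was more nuclear than the 3'UTR in 1368 of them in arsenite (73.8%) and in 1823 in mock (98.4%), and the median gap was 0.40 and 2.45 on the log2 scale. The units were called in opposite directions in 7 genes in arsenite, with the intron nuclear in each, against 980 in mock. In 4 genes both units were cytoplasmic and in 3 both nuclear. Within a library, the median log2 ratio of intron to 3'UTR tags over these genes was 0.730, 0.919 and 0.931 in the nuclear and 0.434, 0.404 and 0.576 in the cytoplasmic arsenite libraries. In mock it was 1.81, 1.77 and 1.89 in the nuclear and -0.186, -0.730 and -0.672 in the cytoplasmic libraries. The fractions did not overlap in either treatment, and the arsenite libraries of both lay between the mock ones. MATR3, a nuclear matrix protein, had the widest gap of the 7: its intron had 23.2, 31.2 and 27.7 CPM in the nuclear against 8.66, 15.9 and 19.5 CPM in the cytoplasmic libraries. Its 3'UTR had 9.61, 4 and 6.93 CPM against 23.1, 25.6 and 28.5 CPM. The 3'UTR difference of -1.85 ± 0.32 (SE, adjusted p = 4.2e-05) was called in every leave-one-out fit, while the intron difference of 0.92 ± 0.27 (SE, adjusted p = 0.018) was not called without nuclear arsenite library 2 (0.102), nuclear arsenite library 3 (0.0671) or cytoplasmic arsenite library 1 (0.234). DDX21, TPT1 and MOB1B followed, each with 3 or more libraries whose removal ended a call of either unit.

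The snoRNA class was nuclear throughout. All 34 tested units of 95 were called, all without overlap of the libraries, with differences of 1.39 to 4.54 (median 3.27). Of these, 33 were kept, and 31 to 34 were called with a library left out. In 2 of them the cytoplasmic arsenite libraries had no tag and in 10 they had 1 to 3 tags in all. With the former at the bound of 3 tags per library, the median log2 of the ratio of means was 4.05. The 61 untested units, too low for the filter, summed to 93.1 against 13.5 CPM (6.90-fold), with 43 higher in the nuclear fraction, 8 higher in the cytoplasmic one and 10 without tags, while the 34 tested ones summed to 793 against 57.0 CPM (13.9-fold). In mock the untested units were 9.50-fold and the tested ones 7.76-fold higher in the nuclear fraction. The arsenite median of the tested units was 3.96 with the pseudocount divided by 4. SNORD3B-2, a copy of the U3 snoRNA that processes pre-rRNA, had 41.6, 29.6 and 40.7 CPM in the nuclear and 0, 4.55 and 0 CPM in the cytoplasmic libraries (largest peak at chr17:19063936-19063956), 4.54 ± 0.44 (SE, adjusted p = 3.1e-10). SNORD3A, SNORD3B-2 and SNORD3C are near-copies, so the split among them is uncertain. NOP56, a core protein of box C/D snoRNPs whose gene hosts snoRNAs, had 52.8, 44 and 59.8 CPM against 1.44, 3.41 and 0.696 CPM, with the largest peak in SNORD56 (chr20:2656649-2656669), and a difference of 4.39 ± 0.36 (SE, adjusted p = 3.7e-12). RACK1, a ribosome-bound scaffold whose gene hosts snoRNAs, had 7.21, 10.4 and 15.6 CPM against no tag in any cytoplasmic library, which makes it at least 5.57-fold higher at a floor of 3 tags per library. The ribosomal protein genes RPL7A, RPL23A and RPL4 (differences 3.94, 3.77 and 3.74) and RABGGTB, a Rab prenylation subunit (3.73), were also among the 10 largest, with GAS5. In the lists, EIF4A2, EEF2 and EIF4G2 of translation had snoRNA units at 3.30, 2.81 and 2.56, and all 11 nuclear units of ribosomal protein genes outside 3'UTRs and introns had most of their tags in small RNA genes.

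Read by the RefSeq genes at the peaks, whatever the table's class, 170 peaks lay in 162 C/D box snoRNA genes, of which 154 were higher in the nuclear and 7 in the cytoplasmic arsenite libraries. They summed to 1854, 1366 and 1707 CPM in the nuclear and 173, 161 and 159.98 CPM in the cytoplasmic arsenite libraries, a 9.96-fold difference that was 8.67-fold in mock. The fold was 13.5 for those in the snoRNA class, 22.8 in ncRNA, 6.74 in introns, 18.0 in 5'UTRs and 16.0 in 3'UTRs. In mock these folds were 8.15, 14.1, 8.72, 15.8 and 11.9. The 3 peaks without an annotation class went the other way, with 13.6 against 57.0 CPM (0.239-fold, no overlap), and held 267 of the 754 cytoplasmic tags of C/D genes. H/ACA box snoRNAs, which guide pseudouridylation, summed to 361 against 453 CPM in arsenite with overlap (0.797-fold, exact permutation p = 0.2) and 245 against 1052 CPM in mock. One peak at SNORA100 in the HNRNPU 3'UTR had 263 against 412 CPM. The other 68 peaks had 97.7 against 40.7 CPM (2.40-fold), and in mock they lay on the cytoplasmic side, with 128 against 182 CPM (0.702-fold). Of these 68, the 51 in the snoRNA and ncRNA classes had 62.6 against 7.62 CPM (8.22-fold), and were 3.66-fold nuclear in mock. Peaks in snRNA genes, the RNAs of the spliceosome, had 915 ± 116 against 286 ± 67.2 CPM (3.20-fold). Those of RMRP, the RNA of RNase MRP, had 24.4 against 2.04 CPM (11.96-fold), and those of Y RNAs had 5.73 against 27.2 CPM (0.211-fold), all 3 kinds without overlap. tRNA peaks (93.6 against 137 CPM) and rRNA peaks (2270 against 2442 CPM) overlapped. Of the 262 nuclear units 62 had over 50% of their tags in small RNA genes, 52 of them in snoRNA genes, against 2 of the 670 cytoplasmic ones. Overlap was read by position alone, without strand.

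Long non-coding hosts of snoRNAs could be split into peaks inside and outside the snoRNA genes. GAS5, whose spliced transcript is short-lived, had 214, 162 and 199 CPM in the nuclear and 7.22, 3.98 and 7.65 CPM in the cytoplasmic arsenite libraries over 10 peaks inside snoRNA genes, 30.5-fold. It had 8.01, 8 and 12.1 CPM against 6.5, 6.25 and 9.04 CPM over the 2 peaks outside, 1.29-fold with overlap (exact permutation p = 0.3). SNHG1 had 227, 146 and 216 CPM against 8.66, 7.39 and 6.26 CPM over 8 peaks inside, 26.3-fold. It had 37.5 against 27.2 CPM outside, 1.38-fold (exact permutation p = 0.3). ZFAS1 was 22.9-fold inside and 1.06-fold outside, and SNHG6 12.1-fold and 0.817-fold. In 2 hosts the outside peaks were cytoplasmic: SNHG16 had 13.0 against 0.911 CPM inside and 36.6 against 84.0 CPM outside, and SNHG29 8.02 against 0 CPM inside and 29.1 against 104 CPM outside. In SNHG17 and SNHG30 the outside peaks were nuclear without overlap, with 5.73 against 2.92 CPM (1.96-fold) and 6.60 against 3.12 CPM (2.11-fold), each with an exact permutation p of 0.1. Those of SNHG32 overlapped, at 2.98 against 7.19 CPM (0.414-fold, exact permutation p = 0.2). As whole units, 8 of 13 tested hosts were nuclear and 2, SNHG16 at -0.77 (adjusted p = 0.0021) and SNHG29 at -1.47 (adjusted p = 3.5e-08), were cytoplasmic, and 9 were kept. Of all tested ncRNA units 7.69% were nuclear and 2.37% cytoplasmic. Most tags of 7 of the 13 hosts lay in small RNA genes. DANCR was at -0.23 (adjusted p = 0.797). SNHG12, with no cytoplasmic tag, was at least 4.83-fold higher in the nuclear libraries. Without the peaks in small RNA genes, a choice made after seeing the data, 204 of the 262 nuclear units could still be tested and 195 were still nuclear. GAS5 was not among them.

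**Figure D4:**
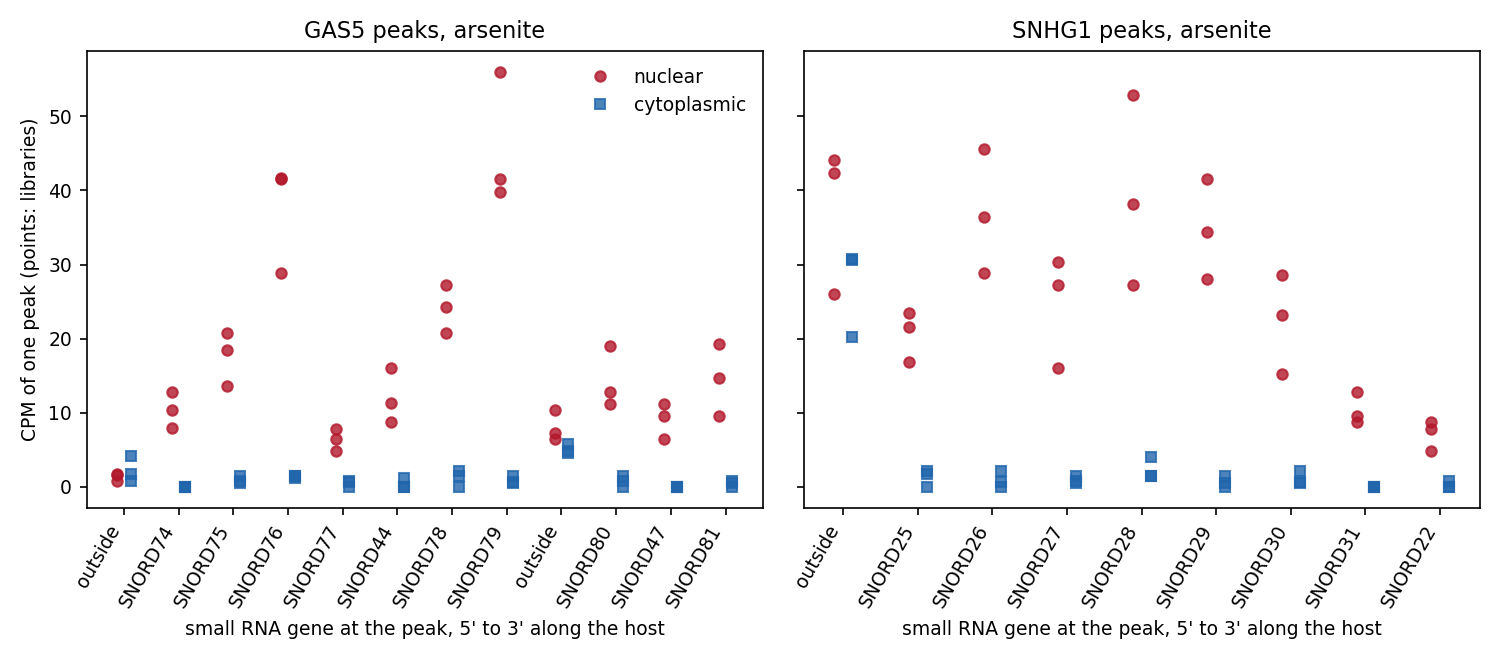
Level in CPM of each GAS5 and SNHG1 peak in the 3 nuclear (red circles) and 3 cytoplasmic (blue squares) arsenite libraries, in order from 5' to 3' along the host gene; the x axis names the snoRNA gene at the peak or says that it lies outside one. Inside snoRNA genes the summed difference is 30.5-fold for GAS5 and 26.3-fold for SNHG1, outside it is 1.29-fold and 1.38-fold.

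Of 9 tested units of nuclear-retained lncRNAs 3 were nuclear in arsenite, NEAT1, RMRP and FTX, against 3.11% of all tested units and 7.69% of ncRNA units. NEAT1 differed by 1.21 ± 0.13 (SE, adjusted p = 3.4e-09) in arsenite and 1.72 in mock, a change of -0.51 ± 0.18 (SE, adjusted p = 0.026). FTX, a lncRNA of the X inactivation centre, had 338, 349 and 325 CPM against 236, 244 and 247 CPM, 0.47 ± 0.11 (SE, adjusted p = 0.0036). TUG1, in units annotated as 3'UTR, was cytoplasmic, with 46.4, 52 and 56.3 CPM against 108, 89.3 and 79.3 CPM, -0.82 ± 0.18 (SE, adjusted p = 0.0014), and -2.19 in mock. So MALAT1, NEAT1 and TUG1 lay on different sides: no called difference, nuclear and cytoplasmic.

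Outside small RNA genes the largest nuclear units lay in several classes, and those described here were named after their values were seen. After HSP90AA1 came AASS (5'UTR), a lysine-degrading enzyme, with 24.8, 32 and 30.3 CPM against 2.17, 3.41 and 6.96 CPM, 2.67 ± 0.41 (SE, adjusted p = 5.2e-06). FLVCR1 (CDS), a heme and choline transporter, had 20.02, 25.6 and 29.5 CPM against 2.17, 3.41 and 4.17 CPM, 2.66. TAF15 (class Other), a nuclear RNA-binding protein, had 41.6, 56.8 and 42.4 CPM against 17.3, 19.9 and 20.9 CPM, 1.23 ± 0.24 (SE, adjusted p = 0.00027). None of these overlapped, and each was kept. RBM6 (3'UTR, 2.34), PRMT1 (Other, 2.30), LGR4 (TE, 2.18) and PA2G4 (intron, 2.00) were kept too. UTRN (5'UTR), the utrophin gene, was called in arsenite only, with 40.8, 39.2 and 36.4 CPM against 9.39, 9.66 and 7.65 CPM, a difference of 2.02 ± 0.26 (SE, adjusted p = 2e-07) against -0.44 in mock, and its change was called.

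In 52 units the compartments changed sides. Of these 38 were 3'UTR units that were cytoplasmic in mock and nuclear in arsenite, with a median of -1.48 and 0.94. Another 9 were intron units that went from nuclear (median 0.80) to cytoplasmic (-0.71). The other units were 3 ncRNA and 2 TE units. Those described here were named after their values were seen. CHD4, the ATPase of the NuRD chromatin remodelling complex, had 40.8, 38.4 and 16.5 CPM in the nuclear and 9.39, 8.53 and 11.1 CPM in the cytoplasmic arsenite libraries, and 11.7, 11.8 and 6.76 CPM against 20.2, 35.6 and 23.2 CPM in mock. The groups overlapped in neither treatment and lay in opposite order. The differences were 1.54 ± 0.31 (SE, adjusted p = 0.00042) in arsenite and -1.31 in mock. KMT2D, a histone H3K4 methyltransferase, had 44, 48.8 and 32.9 CPM against 12.3, 20.5 and 16 CPM in arsenite and 16, 14.5 and 14.5 CPM against 44.7, 33.6 and 50.6 CPM in mock. PCNX3 differed by 1.27 (adjusted p = 0.00018) in arsenite and -0.90 in mock, and ZC3H4, a factor that ends unproductive transcription, by 1.24 (adjusted p = 0.0025) and -0.99. MYBBP1A, PHF2 and SETD2 had the differences 1.72, 1.63 and 1.498 in arsenite. MYBBP1A was not called without nuclear arsenite library 1 (0.0871), nuclear arsenite library 2 (0.0853) or cytoplasmic arsenite library 3 (0.342). PHF2 was not called without nuclear arsenite library 3 (0.16), cytoplasmic arsenite library 1 (0.0575) or cytoplasmic arsenite library 3 (0.0812). SETD2 was not called without nuclear arsenite library 2 (0.109), nuclear arsenite library 3 (0.0833) or cytoplasmic arsenite library 3 (0.108). In the other direction, the TE unit of R3HDM1 went from 1.20 to -1.51 (adjusted p = 0.012), which was not called without nuclear arsenite library 3 (0.0702), cytoplasmic arsenite library 1 (0.0752) or cytoplasmic arsenite library 3 (0.092).

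**Figure D5:**
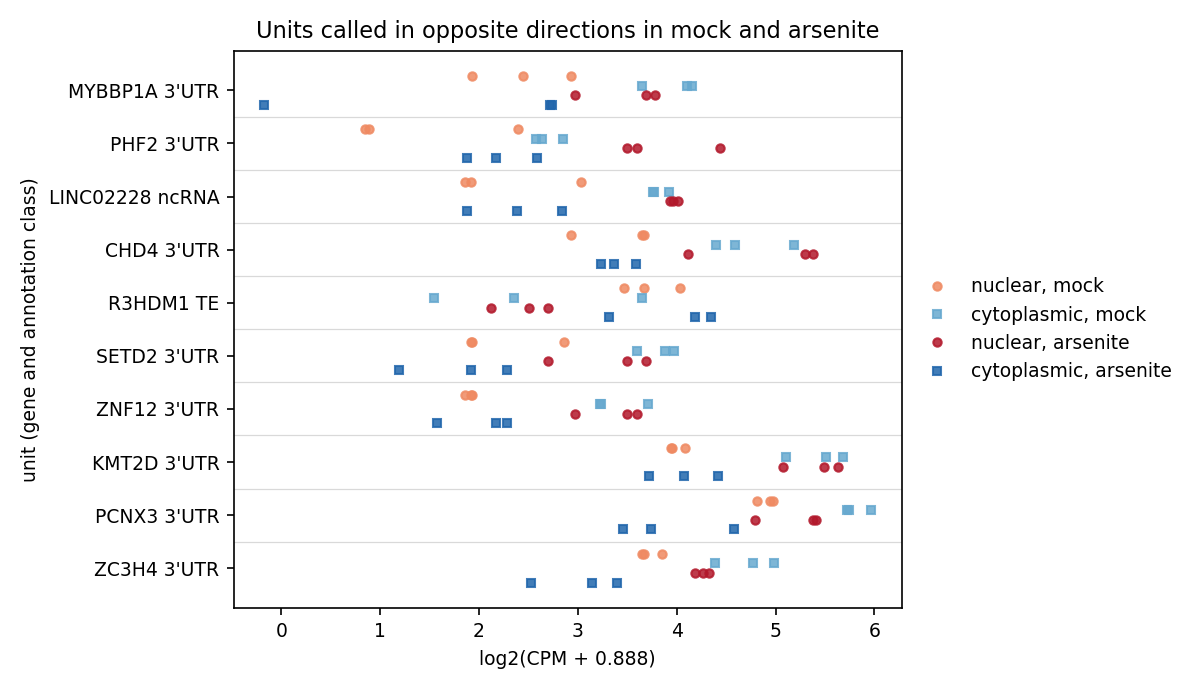
Level of 10 units called with opposite signs in mock and arsenite, on the log2(CPM + 0.888) scale (x axis), with 1 point per library for nuclear mock (orange circles), cytoplasmic mock (light blue squares), nuclear arsenite (red circles) and cytoplasmic arsenite (dark blue squares), 3 libraries each. CHD4 shows the pattern: its nuclear arsenite libraries had 40.8, 38.4 and 16.5 CPM and its cytoplasmic ones 9.39, 8.53 and 11.1 CPM.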

How the data were processed

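The authors deposited, for each 20-nt HuR peak, a signal per library: the number of CLIP tags divided by the library's total. Multiplied by that total, 100% of values were whole tags (tolerance 0.01), so whole reads were recovered, and CPM are per 1000000 of the total. The submitters' processing notes name GRCh38.p14, Bowtie2, SAMtools, bedtools and HOMER; the peak caller, its settings and whether peak starts count from 0 or 1 are not given in the sources used here (0 was assumed). Peaks without a gene name (84358, 18.0% of tags in the fraction libraries) were left out of units.

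Units were tested with limma 3.58.1 (R 4.3.3; lmFit and eBayes with a trend) in 1 fit of 12 libraries with 4 group means; the pseudocount of 0.888 CPM and the filter of 5 CPM are set out with the results. Because the deposited values are scaled, edgeR 4.0.16 (quasi-likelihood) and DESeq2 1.42.0 on the recovered tags were alternatives, as were other scalings, pseudocounts and filters, a replicate block, each library left out and, chosen after seeing the data, the removal of peaks in RefSeq small RNA genes. On simulated data of 8424 units limma recovered 40 of 100 2-fold and 92 of 100 4-fold changes and called 2 unchanged units. Shares were tested by exact permutation. Named were the 10 largest called units without overlap on each side, the 5 largest changes on each side, up to 4 called units per list, 4 genes with opposite calls and 8 chosen genes; further units are said to be chosen after seeing values. A few units are not reported here but stay in the fits and counts. The libraries compared and the lists were chosen with earlier results of these data known.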

Additional observations from a re-analysis of the deposited data

Results flagged for a closer look

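The compartment difference itself differed between arsenite and mock in 3463 of 8424 units, by limma's test of that difference (adjusted p under 0.05). The values below are the change of the nuclear minus cytoplasmic log2 difference, arsenite minus mock, for units reported here in which that test was passed; groups of 3 libraries are too small for a test of single outlying samples. Among these 3'UTR units every such change was toward the nuclear side, as it was in 1804 of all 2850 tested 3'UTR units (63.3%), against 4 (0.14%) that changed the other way. The changes of at least 2 were in POTEF (4.44), POGLUT1 (3.97), POTEI (3.79), COX10 (3.68), SH2D4A (3.68), MYBBP1A (3.25), POTEM (3.17), SETD2 (3.08), PHF2 (2.94), HNRNPH2 (2.93), CHD4 (2.85), ACTG1 (2.84), ZNF12 (2.83), KMT2D (2.78), HSPA9 (2.42), BTG2 (2.24), ZC3H4 (2.23), ACTB (2.17), PCNX3 (2.17), SCD (2.13), PGK1 (2.12), G3BP1 (2.12) and ZNF770 (2.08). Those of 1.5 to 2 were in SLC38A2 (1.95), RAB8B (1.87), ELAVL1 (1.84), PSMD11 (1.81), SLC38A1 (1.75), JUND (1.71), KLF6 (1.69), CNOT7 (1.65), GCLM (1.65), HNRNPA1L3 (1.62), RAN (1.57), RAB5A (1.52) and PCBP2 (1.51). The smaller ones were in PRDX6 (1.42), TPT1 (1.41), TUG1 (1.37), TFRC (1.37), SLC7A2 (1.35), PRDX1 (1.32), TFPI (1.27), H2AZ2 (1.26), SRSF9 (1.21), PTBP3 (1.15), DNAJC3 (1.10), FGB (1.03), ELOVL5 (1.02), COX7A2L (0.97), KPNA4 (0.86), ACTR2 (0.85) and ZNF652 (0.82).

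In other classes the changes toward the nuclear side were in LINC02228 ncRNA (3.15), UTRN 5'UTR (2.47), NORAD ncRNA (2.44), RPL23 CDS (2.39), ATF3 intron (2.04), SNORD3C snoRNA (1.95), SNORD3B-2 snoRNA (1.81), FLVCR1 CDS (1.69), SNORD3A snoRNA (1.25), APOB CDS (1.11), EIF4G2 snoRNA (1.07), MT-RNR2 unannotated (0.81) and SNHG29 ncRNA (0.76). Those toward the cytoplasmic side were in NEAT1 ncRNA (-0.51), FTX ncRNA (-0.57), HNRNPD intron (-0.91), SRSF6 CDS (-1.75), ARIH1 TE (-2.18), TGS1 intron (-2.63), ST8SIA6-AS1 ncRNA (-2.70), R3HDM1 TE (-2.71), ASCC1 intron (-2.99) and PPIG Other (-3.93). POTEF, POTEI, POTEM, ACTB and ACTG1 are near-copies in sequence, as are SNORD3A, SNORD3B-2 and SNORD3C, so tags may be split among them.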

How the results depend on the processing

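Called units numbered 932 in arsenite, 5669 in mock and 3463 for the change, with 804 kept. With each library left out in turn they were 609 to 1016, 5132 to 5746, 2853 to 3879 and 527 to 865; the lowest arsenite and kept counts came without cytoplasmic arsenite library 2. With a mean of at least 20 CPM there were 606, 2809 and 2251, on fewer units tested. DESeq2 gave 661 in arsenite and 2100 for the change; the cause of the latter was not tested. In arsenite edgeR gave 1336 with library totals and 1292 with TMM, and limma 1369 on the 6 arsenite libraries alone, 818 without a filter, 1069 and 791 with the pseudocount times or divided by 4, 881 per tag in peaks, 878 with centring, 918 with repeated lines retained and 853 without small RNA peaks. With the replicate number as a block there were 911, 5663 and 3433 calls and 791 kept; libraries with the same number in the fractions had deviations that correlated at 0.0292 to 0.0702 in arsenite and -0.0112 to 0.0358 in mock, under the 0.1 taken to show pairing. Libraries with different numbers gave -0.0668 to 0.0126 in arsenite, below every pair with the same number, and -0.0448 to 0.0390 in mock. Deviations within a group cancel out, so the same-number and different-number correlations are not independent. The arsenite values are at most a weak hint of pairing, from the data and not from the design, and cannot decide it. Scalings moved the arsenite median of all units by at most 0.065, the mock median by -0.205 to 0.148 and that of the change by up to 0.25. The share differences of 3 classes turned sign: as a share of the library total CDS was -0.00201, TE -0.0339 and downstream 10K -0.0276; as a share of peaks with a tag TE was -0.0592 and downstream 10K -0.0182; and with a library left out TE ranged from -0.000573 to 0.0744 and downstream 10K from -0.0278 to 0.0351. For the named units 2741 of 2997 values lay on the same side of the threshold, 236 lost and 20 gained a call, and none reversed a called sign. Of the 109 named units called in arsenite, 69 were called in every alternative, 72 in every leave-one-out fit and 84 by DESeq2. At this depth 1 tag is worth 0.568 to 0.866 CPM in the arsenite libraries, and simulated 2-fold changes were recovered in 40 of 100 units.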

Other observations

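Arsenite libraries from proximity-labelled cells, whose APEX enzyme carried a nuclear localisation signal (NLS) or a nuclear export signal (NES), were read over the units kept in the fractions. The 611 kept cytoplasmic units held 3.73, 3.67, 5.16 and 6.21% of the tags in peaks in 4 NLS libraries and 16.2, 14.6, 4.67 and 6.52% in 4 NES libraries. These were 465, 1315, 1778 and 1490 tags in the NLS and 782, 953, 907 and 1418 tags in the NES libraries. NES libraries 1 and 2, with the highest shares, were thus the shallowest. The 59 kept nuclear units with most tags in small RNA genes held 0.553, 0.549, 5.61 and 4.54% in the NLS and 0.744, 0.857, 8.90 and 4.31% in the NES libraries. In NES libraries 1 and 2 these shares rested on 36 and 56 tags, and in NLS library 1 on 69 tags. The 134 other kept nuclear units held 2.09, 2.31, 1.62 and 1.73% in the NLS and 1.47, 1.21, 0.669 and 0.764% in the NES libraries. The 4 NES libraries ranged from 4.67 to 16.2% for the kept cytoplasmic units, and no test was made between the signals. In the fraction libraries of arsenite the kept cytoplasmic units held 5.59, 4.93 and 4.68% of the nuclear and 10.1, 10.7 and 9.74% of the cytoplasmic tags.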
